A study of Homo sapiens with 12 samples.

Results

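Histone genes were examined in A375 cells, a human melanoma cell line, after knockdown of ALKBH5, an enzyme that removes the methyl group of N6-methyladenosine (m6A) from RNA. Members were chosen by gene name alone, as all names of the H1, H2A, H2B, H3 and H4 histone families other than those marked as pseudogenes by a closing P. The rule found 80 of the 29696 genes in the expression table. Of these, 78 encode histones and 2, H1-10-AS1 and H2AZ1-DT, are noncoding neighbours with a histone name. The 78 were divided into 64 replication-dependent genes and 14 replication-independent genes, which mostly encode variant histones. The replication-dependent genes lie in clusters on chromosomes 1 and 6 and are also called clustered here, except that H4-16, which was also put in this class, lies on chromosome 12 near H2AJ of the other class. A375 cells infected with lentivirus for shALKBH5 (genotype label ALKBH5 knockdown) were compared with A375 cells carrying shCtrl (genotype label wild type), called Scramble in the study. Each group had 3 input libraries and 3 libraries immunoprecipitated (IP) with an antibody against m6A, all made from poly(A)-selected RNA. The study harvested RNA-Seq cells 48 h after infection and named neither the hairpin used for sequencing nor any separate clone, so the groups stand for 1 cell line. The study says in general that its experiments were repeated independently, but the labels do not say this of the libraries, whose spread may be technical.

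Core histones H2A, H2B, H3 and H4 wrap DNA into nucleosomes, and linker histones of the H1 family bind where the DNA enters and leaves them. Replication-dependent histone genes are transcribed in S phase, and their usual mRNAs end in a stem-loop in place of a poly(A) tail. Some of them also give polyadenylated transcripts. Replication-independent genes are transcribed through the cell cycle, give polyadenylated mRNAs and supply variants that are exchanged into chromatin outside replication. H2AX, counted in this class, is known to give both a stem-loop mRNA and a polyadenylated one. Libraries made from poly(A)-selected RNA therefore sample the first class only in part.

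Promoter sequences are shown for members on which the results turn, because genes that moved in opposite directions share promoter elements. They are the 150 bases before the start of each gene, read 5′ to 3′ on the strand of the gene, from RefSeq (GRCh38.p14). Capitals mark the TATA box TATAAA, the CCAAT box CCAAT and the octamer ATTTGCAT, searched on both strands, so that ATTGG is CCAAT on the other strand. H2AZ2 and H1-10 were lower in shALKBH5 cells, H2AX, H2BC21, H3C10, H2AC18 and H2AC19 were higher, and H2BC12 was the most abundant replication-dependent gene.
H2AZ2 (chr7:44848088-44848237, minus strand): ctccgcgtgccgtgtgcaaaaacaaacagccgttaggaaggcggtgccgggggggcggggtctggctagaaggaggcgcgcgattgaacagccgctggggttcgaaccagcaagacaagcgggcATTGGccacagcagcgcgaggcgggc
H1-10 (chr3:129316287-129316436, minus strand): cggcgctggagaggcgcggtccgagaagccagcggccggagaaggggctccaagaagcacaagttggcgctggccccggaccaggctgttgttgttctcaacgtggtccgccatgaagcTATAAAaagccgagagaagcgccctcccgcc
H2AX (chr11:119095466-119095615, minus strand): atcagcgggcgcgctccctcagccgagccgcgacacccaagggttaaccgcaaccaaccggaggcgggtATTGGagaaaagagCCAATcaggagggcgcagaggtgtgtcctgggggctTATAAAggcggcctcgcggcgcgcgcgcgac
H2BC21 (chr1:149886683-149886832, minus strand): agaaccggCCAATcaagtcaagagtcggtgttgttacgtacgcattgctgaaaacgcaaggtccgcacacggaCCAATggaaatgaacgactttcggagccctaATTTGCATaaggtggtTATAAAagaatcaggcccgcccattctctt
H3C10 (chr6:27809901-27810050, plus strand): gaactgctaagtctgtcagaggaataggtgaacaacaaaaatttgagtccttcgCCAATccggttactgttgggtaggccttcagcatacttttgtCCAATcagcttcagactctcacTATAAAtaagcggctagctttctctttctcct
H2AC18 (chr1:149842751-149842900, minus strand): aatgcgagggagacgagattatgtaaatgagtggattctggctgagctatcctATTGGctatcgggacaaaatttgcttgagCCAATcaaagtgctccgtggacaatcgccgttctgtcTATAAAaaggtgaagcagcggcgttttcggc
H2AC19 (chr1:149850911-149851060, plus strand): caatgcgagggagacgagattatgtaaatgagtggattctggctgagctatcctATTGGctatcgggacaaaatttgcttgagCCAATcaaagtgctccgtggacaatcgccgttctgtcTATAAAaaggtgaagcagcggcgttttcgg
H2BC12 (chr6:27146859-27147008, minus strand): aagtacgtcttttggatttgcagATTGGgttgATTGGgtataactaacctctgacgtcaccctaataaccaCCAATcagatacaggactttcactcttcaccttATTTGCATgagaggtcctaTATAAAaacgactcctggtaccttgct

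RefSeq windows were found for 67 of the 80 members. In the 250 bases before the start, TATAAA was present in 37 of 56 replication-dependent genes (66.1%) and in 4 of 10 replication-independent genes, against 11.1% of all 27305 promoters. CCAAT was present in 48 of the 56 (85.7%) and in 9 of the 10, against 33.0% of all promoters. ATTTGCAT was present in 24 of the 56 (42.9%) and in 1 of the 10, against 1.66% of all promoters. Histone promoters of both classes thus held CCAAT more often than the whole set. For the octamer the shares of the classes were not tested against each other, and 10 windows are few. Among replication-dependent genes that passed the filter, TATAAA was present in 8 of 11 called higher and in 8 of 9 not called. CCAAT was present in 8 of the 11 and 7 of the 9, and ATTTGCAT in 2 of the 11 and 5 of the 9. These small counts were not tested, and the 11 include copies. The windows of H2AC18 and H2AC19 were identical over 249 bases once shifted by 1 base, those of H4C14 and H4C15 over 250 bases, and those of H3C14 and H3C15 over 246 bases when shifted by 4. These pairs are copies, and their reads can be shared between them. These matches describe letters in a window and are not evidence of factor binding.

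Expression values were deposited as FPKM, fragments relative to transcript length and library total, and no counts were used here, which leaves sequencing depth unknown. ALKBH5, the targeted gene, was at 3.39, 3.92 and 3.12 FPKM in the shALKBH5 libraries and at 19.3, 17.8 and 17.6 FPKM in the shCtrl libraries, and the groups did not overlap. The melanoma genes SOX10, PRAME, MIA, CSPG4 and S100B had group means between 32.9 and 184.2 FPKM. Others were lower, with S100A1 at 4.43 FPKM in shALKBH5 and 1.855 FPKM in shCtrl cells and MITF at 1.26 and 0.777 FPKM. The pigment gene PMEL was at 0.611 FPKM in shALKBH5 and 0.237 FPKM in shCtrl cells. The other pigment genes were near 0, with TYRP1 at 0.123 FPKM in shALKBH5 and 0.157 FPKM in shCtrl cells, DCT at 0.0301 and 0.0324 FPKM, and TYR listed at 0 in all shCtrl libraries. Of the marker lists, 7 of 11 melanoma genes found in the table passed the filter and 4 were called higher and 1 lower, 2 of 3 keratinocyte genes passed (1 higher, 1 lower), 3 of 5 fibroblast genes passed (1 higher, 1 lower) and 1 of 3 leukocyte and endothelial genes, CD68, passed and was higher. Of all tested genes 61.0% were called, 34.7% higher and 26.2% lower.

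A gene was tested when its mean over the 6 input libraries was at least 0.5 FPKM, by limma on log2(FPKM + 0.1), and called at an adjusted p-value under 0.05. This filter left 32 of the 80 histone genes, 24 of the 64 replication-dependent and 8 of the 14 replication-independent genes. Of the 32, 14 were higher and 9 lower in shALKBH5 cells, together 71.9%, where 61.0% of all 12985 tested genes were called (34.7% higher and 26.2% lower). Groups were fully separated in 23 of the 32, as they were in 67.0% of all tested genes. Changes at this rate were therefore the rule in the whole table, and the share in histone genes was near it. The classes differed in direction by count. In the replication-dependent class 13 genes were higher, 2 lower and 9 not called, with a median log2 fold change of 0.68, and in the replication-independent class 1 was higher and 7 lower, with a median of -0.61. The median over all tested genes was 0.09. Of the called replication-dependent genes, H3C6, H3-2, H4C8 and H2BC4 had a mean under 0.5 FPKM in 1 group, so that they passed the filter only through the group where they were high. Such genes had to differ, and these counts describe the genes that passed and not the class. Over all members with no filter, the medians were 0.023 for the replication-dependent and -0.42 for the replication-independent class. The added 0.1 makes fold changes of weakly expressed genes smaller than they are.

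**Figure D1:**
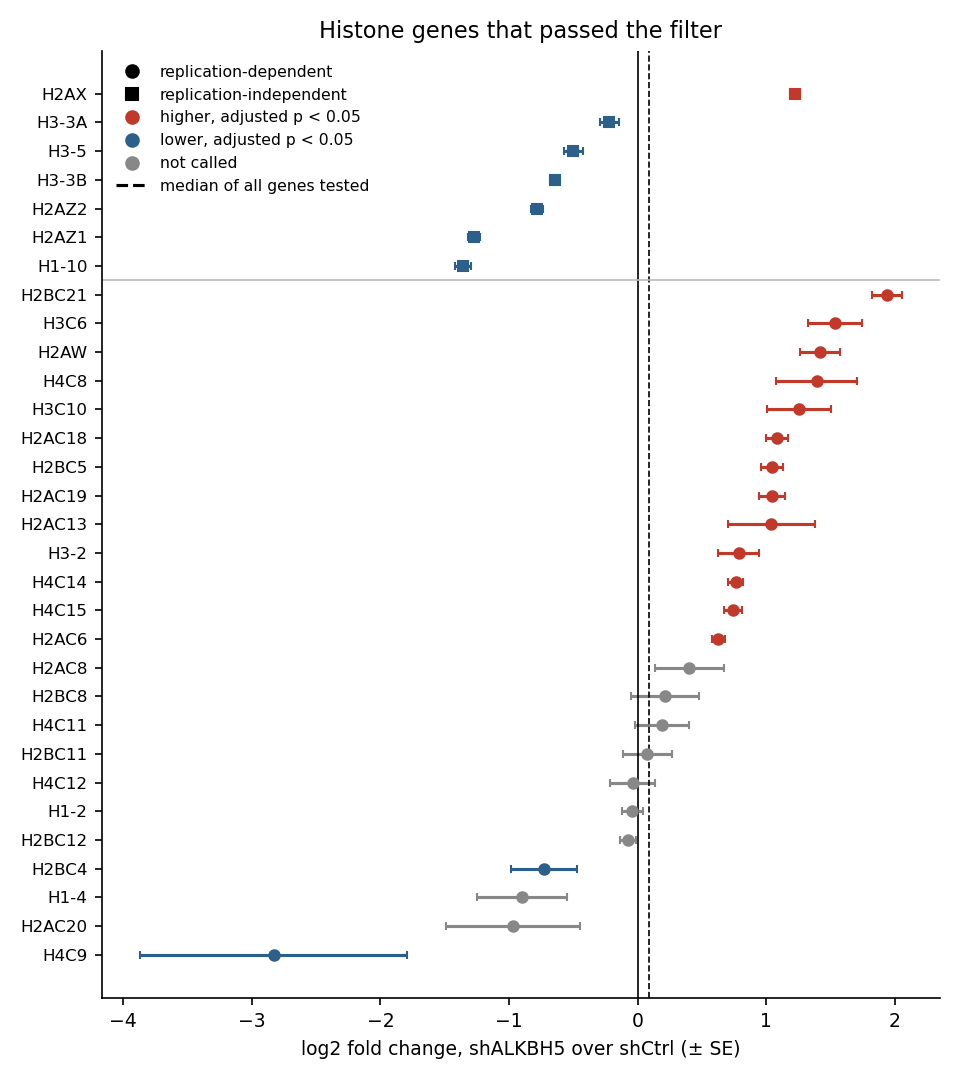
The log2 fold change of shALKBH5 over shCtrl (x axis, with its standard error) for 31 histone genes that passed the filter, with squares for 7 replication-independent and circles for 24 replication-dependent genes. All squares other than H2AX lie left of 0, while 13 of the circles are called higher and 2, H2BC4 and H4C9, lower, and the dashed line marks the median of all genes tested at 0.09.

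Summed over its members, the replication-independent class was at 293, 297 and 298 FPKM in the shALKBH5 libraries and at 464, 452 and 478 FPKM in the shCtrl libraries. The knockdown mean was 0.637 of the control mean. The replication-dependent class was at 166, 164 and 167 FPKM in shALKBH5 and at 129, 123 and 121 FPKM in shCtrl cells, 1.335 times the control. The sums of the groups did not overlap in either class, and the class that was lower was the more abundant one, so the sum of the 78 genes was 461.5 ± 3.05 FPKM (SD, n = 3) against 588.6 ± 12.7 FPKM (SD, n = 3). Of the core histone families, the summed H3 RNA was 98.2 ± 0.876 against 133.1 ± 7.37 and H2A was 161.4 ± 0.937 against 184.9 ± 7.49 (SD, n = 3 in each group). H2B was higher, at 61.7 ± 4.02 against 52.4 ± 2.78 FPKM, and H4 was at 18.4 ± 0.992 against 14.3 ± 1.60 FPKM (SD, n = 3 in each group). The sum of the linker family is not reported here. In bulk RNA, fewer cells in S phase and less RNA per cell cannot be told apart.

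Among the variants of H2A, H2AZ1 and H2AZ2 encode the H2A.Z proteins, which are exchanged into nucleosomes around promoters. H2AZ1 (ENSG00000164032) was at 48.4, 50.3 and 49.0 FPKM in shALKBH5 and at 117.8, 113.7 and 126.4 FPKM in shCtrl libraries. It was the most abundant histone gene in the control and every knockdown library lay below every control library, with a log2 fold change of -1.27 (SE 0.0469, adjusted p = 1.15e-06 by limma). H2AZ2 was at 10.2, 10.1 and 9.84 FPKM in shALKBH5 and at 17.2, 16.9 and 18.1 FPKM in shCtrl libraries. It also lay below in every library, by less (log2 fold change -0.78, SE 0.0466, adjusted p = 9.21e-06 by limma). The ratio of H2AZ1 to H2AZ2 ran from 4.73 to 4.98 in shALKBH5 and from 6.71 to 6.98 in shCtrl libraries (p = 0.1 in a two-sided exact permutation test, which cannot go lower with 3 libraries against 3).

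H2AX, which has both kinds of mRNA, encodes the H2A variant that is phosphorylated around DNA breaks. It was at 45.1, 47.1 and 45.3 FPKM in shALKBH5 and at 19.2, 20.1 and 19.4 FPKM in shCtrl libraries. H2AX was the only replication-independent gene called higher, with all knockdown libraries above all control libraries (log2 fold change 1.22, SE 0.0395, adjusted p = 7.34e-07 by limma). The ratio of H2AX to H2AZ1 was 0.924 to 0.937 in shALKBH5 and 0.153 to 0.177 in shCtrl libraries. Of the RNA of all H2A genes, H2AZ1 made up 63.7% to 65.5% in the control libraries and 30.1% to 31.0% in the knockdown libraries. H2AX rose from 10.0% to 11.2% of it in the control to 28.1% to 29.0% in the knockdown. The clustered gene H2AW went from 3.30% to 4.64% in the control to 10.7% to 12.3% in the knockdown. The summed H2A RNA differed by less than the shares of these genes within it.

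**Figure D2:**
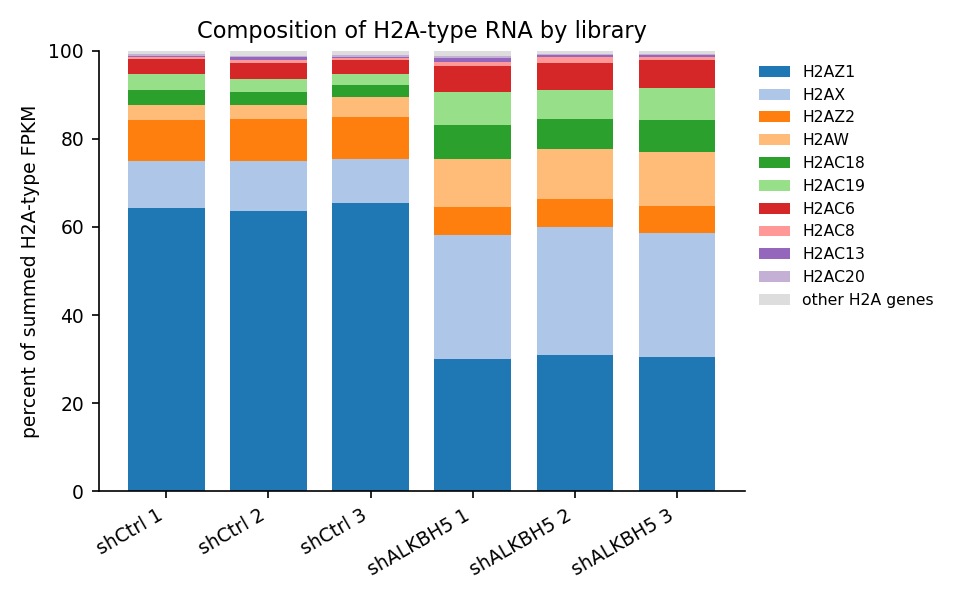
The percent of summed H2A-type FPKM contributed by each H2A gene (y axis) in the 3 shCtrl and 3 shALKBH5 input libraries (x axis), with genes under the filter joined as other H2A genes. H2AZ1 fills over 63% of each control bar and about 30% of each knockdown bar, where H2AX reaches 28.1% to 29.0%.

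H3-3A and H3-3B encode the same protein, H3.3, which HIRA and DAXX place into chromatin outside replication. H3-3B was at 50.7, 51.3 and 51.7 FPKM in shALKBH5 and at 77.6, 79.4 and 83.0 FPKM in shCtrl libraries. It was lower in every knockdown library (log2 fold change -0.64, SE 0.0379, adjusted p = 9.02e-06 by limma). H3-3A was at 39.7, 40.0 and 37.4 FPKM in shALKBH5 and at 41.7, 44.7 and 50.6 FPKM in shCtrl libraries. Its groups did not overlap but lay close, with a log2 fold change of -0.22 (SE 0.0723, adjusted p = 0.0316 by limma). This call was lost when any library other than shCtrl replicate 1 was left out (adjusted p from 0.0524 to 0.0972). The ratio of H3-3B to H3-3A was 1.27 to 1.38 in shALKBH5 and 1.64 to 1.86 in shCtrl libraries (p = 0.1, again the lowest value of the exact permutation test). H3-5, which encodes an H3 variant from an intronless gene, was at 3.07, 2.71 and 2.70 FPKM in shALKBH5 and at 3.93, 4.04 and 4.13 FPKM in shCtrl libraries. It was lower in every knockdown library (log2 fold change -0.50, SE 0.0740, adjusted p = 0.000794 by limma).

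The linker histone gene H1-10 encodes H1X. H1-10 was at 29.6, 29.2 and 31.4 FPKM in shALKBH5 and at 84.5, 72.4 and 75.1 FPKM in shCtrl libraries. It showed the largest decrease among called members whose groups did not overlap, with a log2 fold change of -1.36 (SE 0.0640, adjusted p = 3.34e-06 by limma). H1-10 overlaps its antisense gene H1-10-AS1, which was at 0.163 FPKM in shALKBH5 and 0.429 FPKM in shCtrl cells in the mean. The remaining 6 replication-independent genes, H2AJ, H2AB1, H2AB2, H2AB3, H2BE1 and H2BS1, were between 0.00245 and 0.154 FPKM in the mean over the 6 libraries and were not tested.

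**Figure D3:**
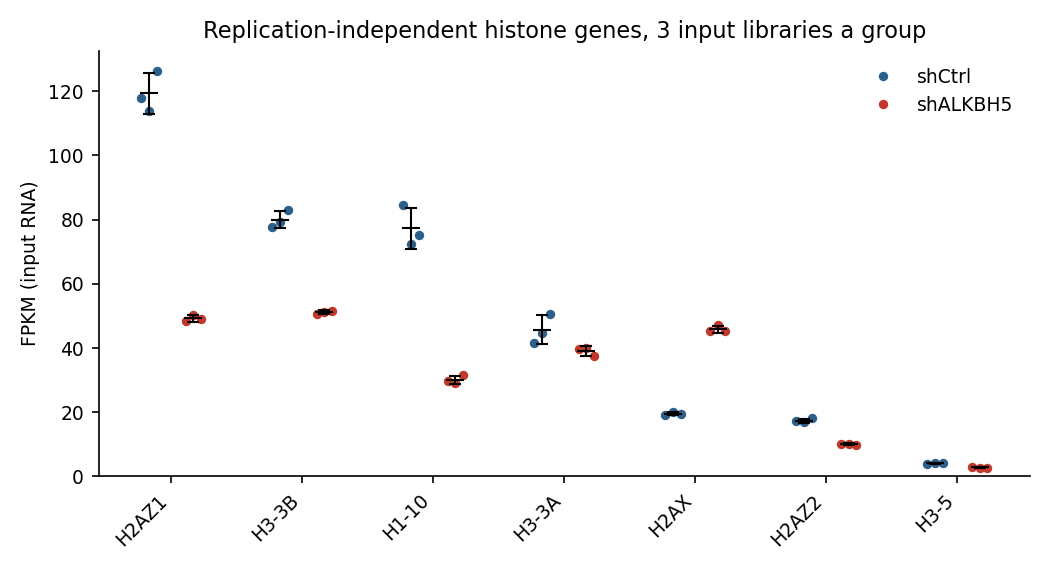
FPKM of input RNA (y axis, from 0) for 7 replication-independent histone genes that passed the filter, with a point for each of 3 libraries a group and the mean ± SD in black. The shALKBH5 points of H2AX lie above the shCtrl points and those of the other 6 genes below.

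Of the 64 replication-dependent genes, 40 were under the filter, so most of this class was measured near the floor of the table. The RNAs that lack a poly(A) tail give a view of how much such RNA entered the libraries. Of 26 listed, 24 were in the table, and they summed to between 742 and 886 FPKM in shALKBH5 and between 569 and 631 FPKM in shCtrl libraries. Nearly all of this was RN7SL2 and RN7SL1, which encode 7SL RNA. Of the 11 that passed the filter, RN7SL2, RN7SL1 and SCARNA12 were called higher and 8 were not called, with a median log2 fold change of 0.38. Of those under the filter, SCARNA6, RNU12 and SCARNA2 were listed at 0 in all shCtrl libraries and SCARNA5 at 0 in all shALKBH5 libraries. The 3 called were 27.3% of the 11, where 61.0% of all tested genes were called, and RMRP, RN7SK and RNU5A-1 had log2 fold changes of -0.26, -0.08 and -0.17. The sum of these RNAs was higher in shALKBH5, as was that of the clustered genes, and its part in their values was not tested.

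H2BC12 and H1-2, the most abundant clustered genes, were not called. H2BC12, which encodes an H2B, was at 36.4, 37.8 and 41.4 FPKM in shALKBH5 and at 43.1, 40.0 and 38.6 FPKM in shCtrl libraries, with overlapping groups (log2 fold change -0.07, SE 0.0624, adjusted p = 0.332 by limma). H1-2, a replication-dependent linker histone, was at 25.6, 24.7 and 20.5 FPKM in shALKBH5 and at 24.4, 24.4 and 23.8 FPKM in shCtrl libraries, again with overlap (log2 fold change -0.04, SE 0.0819, adjusted p = 0.688 by limma). The other 8 of the 10 most abundant were higher, with no overlap between groups, where 34.7% of all tested genes were higher and 67.0% did not overlap. The 8 hold both members of 2 pairs of copies, H2AC18 with H2AC19 and H4C14 with H4C15. Without H2BC12 the clustered sum was 1.52 times the control, and without H1-2 it was 1.42 times.

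Among the clustered H2A genes, H2AW was at 17.3, 18.4 and 19.8 FPKM in shALKBH5 and at 6.03, 5.92 and 8.96 FPKM in shCtrl libraries (log2 fold change 1.42, SE 0.154, adjusted p = 0.000168 by limma). H2AC6 was at 9.62, 9.78 and 10.1 FPKM in shALKBH5 and at 6.33, 6.56 and 6.09 FPKM in shCtrl libraries (log2 fold change 0.63, SE 0.0519, adjusted p = 4.32e-05 by limma). Both were above the control in every knockdown library. H2AC18 was at 12.5, 11.2 and 11.9 FPKM in shALKBH5 and at 6.30, 5.25 and 5.19 FPKM in shCtrl libraries, and H2AC19 at 12.1, 10.8 and 11.7 and at 6.48, 5.18 and 5.04 FPKM. The values of this pair ran side by side, with a ratio of H2AC18 to H2AC19 of 1.02 to 1.04 in shALKBH5 and 0.972 to 1.03 in shCtrl libraries. Their log2 fold changes of 1.08 (SE 0.0854) and 1.04 (SE 0.101) had adjusted p-values of 3.5e-05 and 9.21e-05 by limma, but the genes are near-identical copies and give at most 1 independent value. In total 5 of 7 tested clustered H2A genes were higher, both copies included, and the other two, H2AC8 and H2AC20, were not called. The share called, 71.4%, was near the 61.0% of all tested genes.

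Among the H2B genes, H2BC21 showed the largest increase of the 32 tested members. It was at 6.59, 5.85 and 6.63 FPKM in shALKBH5 and at 1.32, 1.75 and 1.73 FPKM in shCtrl libraries, with no overlap. Its log2 fold change was 1.94 (SE 0.117, adjusted p = 9.97e-06 by limma), 3.98 times the control mean. H2BC5 was at 10.5, 12.4 and 13.1 FPKM in shALKBH5 and at 5.87, 5.84 and 5.49 FPKM in shCtrl libraries, also higher throughout (log2 fold change 1.05, SE 0.0853, adjusted p = 3.98e-05 by limma). H2BC5 overlaps the pseudogene LARP1P1 on its own strand and AL353759 on the other, so its reads may not all be its own. H2BC4, which passed the filter only through shCtrl, went the other way, at 0.586, 0.478 and 0.270 FPKM in shALKBH5 and 0.888, 0.652 and 0.793 FPKM in shCtrl libraries (log2 fold change -0.73, SE 0.256, adjusted p = 0.0412 by limma). Its groups did not overlap, but the call was lost without shALKBH5 replicate 2 or 3 or shCtrl replicate 1 or 3 (adjusted p from 0.0632 to 0.116).

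Among the H3 genes, 3 of 13 passed the filter, H3C6 and H3-2 only through shALKBH5. Of those under it, H3C3 was at 0.169 FPKM in shALKBH5 and 0.500 FPKM in shCtrl cells in the mean, H3C4 at 0.0386 and 0.252 FPKM and H3C7 at 0.0483 and 0.209 FPKM, with overlapping groups. H3C15, at 0.168 and 0.127 FPKM without overlap, and H3C2, at 0.161 and 0.0819 FPKM with overlap, were higher in shALKBH5 in the mean. The other H3 genes under the filter were lower in the mean. H3C6 was at 1.16, 1.36 and 1.23 FPKM in shALKBH5 and at 0.256, 0.501 and 0.370 FPKM in shCtrl libraries (log2 fold change 1.53, SE 0.211, adjusted p = 0.000552 by limma). H3C10 was at 2.58, 1.36 and 2.24 FPKM in shALKBH5 and at 0.829, 0.607 and 0.930 FPKM in shCtrl libraries (log2 fold change 1.25, SE 0.247, adjusted p = 0.00346 by limma). Neither gene overlapped between groups, although H3C10 varied more within shALKBH5. H3-2 was at 0.863 to 1.02 FPKM in shALKBH5 and 0.451 to 0.576 FPKM in shCtrl cells (log2 fold change 0.78, SE 0.157, adjusted p = 0.00374 by limma). In the mean, H3C10 made up 2.10% of H3 RNA in shALKBH5 and 0.592% in shCtrl cells, while H3-3B made up 52.1% and 60.1%.

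Among the H4 genes, H4C14 was at 5.88, 5.95 and 6.01 FPKM in shALKBH5 and at 3.65, 3.44 and 3.32 FPKM in shCtrl libraries. H4C15 was at 5.95, 6.07 and 5.93 FPKM in shALKBH5 and at 3.75, 3.63 and 3.26 FPKM in shCtrl libraries. The copies differed from each other by a ratio of 0.980 to 1.01 in shALKBH5 and 0.948 to 1.02 in shCtrl libraries, and each was higher in every knockdown library (log2 fold changes 0.76 and 0.74, SE 0.0601 and 0.0685, adjusted p = 3.46e-05 and 7.36e-05 by limma). Each overlaps an H3 gene on the opposite strand, H3C14 and H3C15, which were at 0.158 and 0.148 FPKM over the 6 libraries. H4C8, which passed the filter only through shALKBH5, was at 1.01, 0.703 and 0.978 FPKM in shALKBH5 and at 0.218, 0.498 and 0.178 FPKM in shCtrl libraries, without overlap (log2 fold change 1.39, SE 0.314, adjusted p = 0.00651 by limma). H4C9 was listed at 0 in shALKBH5 replicates 2 and 3 and at 1.68 FPKM in replicate 1, against 1.93, 1.79 and 1.57 FPKM in shCtrl libraries. Its groups overlapped, since replicate 1 lay among the controls, and an exact 0 in a table without counts may be a failed estimate. The call (log2 fold change -2.83, SE 1.04, adjusted p = 0.0469 by limma) was lost when any library other than shALKBH5 replicate 1 was left out (adjusted p from 0.0899 to 0.134). H4C11 and H4C12 were not called.

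**Figure D4:**
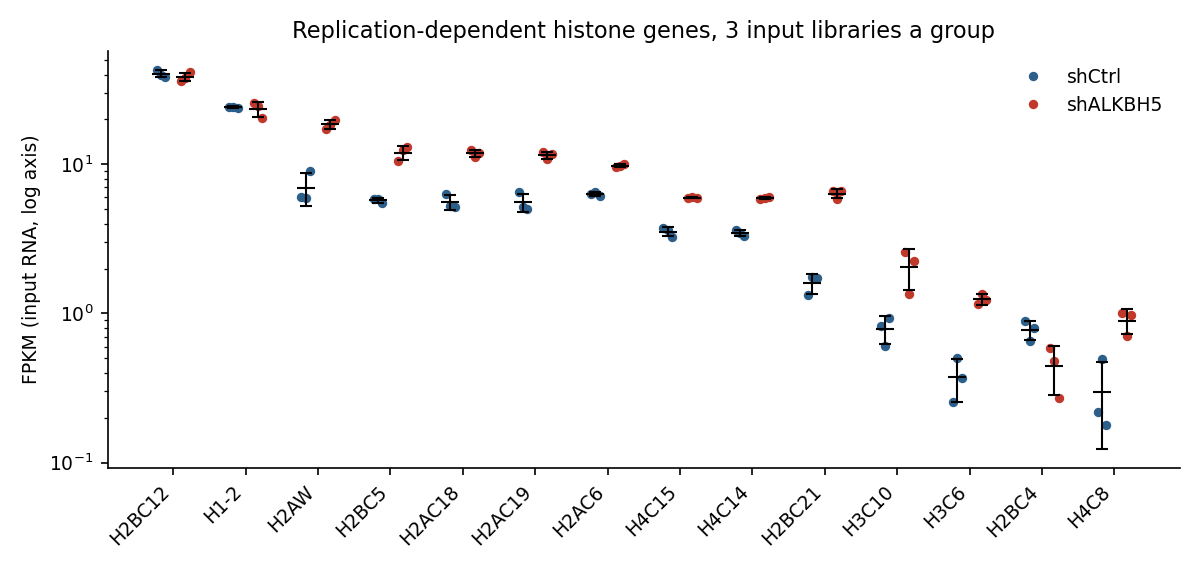
FPKM of input RNA (log axis) for the 10 most abundant replication-dependent histone genes and for H3C10, H3C6, H2BC4 and H4C8, with a point for each of 3 libraries a group and the mean ± SD in black. H2BC12 and H1-2 overlap between groups, H2BC4 is lower in shALKBH5 and the other 11 genes are higher in every shALKBH5 library.

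With copies counted once, 21 of 30 entries (70.0%) were called, against 61.0% of all genes, when H2AC18 with H2AC19, H4C14 with H4C15 and H3C14 with H3C15 were summed. This alternative was chosen after seeing the data. Of the 26 whose annotated span exceeds 1000 bp, 13 passed the filter, of which 9 were higher and 2 lower, with a median log2 fold change of 0.76. Of the 38 with a span of up to 1000 bp, 11 passed, of which 4 were higher and 7 not called, with a median of 0.19. By location, 7 of 8 tested genes on chromosome 1 were higher, and on chromosome 6 6 of 16 were higher and 2 lower, where 34.7% of all tested genes were higher and 26.2% lower. The 7 on chromosome 1 include both members of the pairs H2AC18 with H2AC19 and H4C14 with H4C15. H3C6, H3-2 and H4C8, all with a span over 1000 bp, passed the filter only through shALKBH5, where they were high. H2BC4, also over 1000 bp, passed only through shCtrl, as did the shorter H1-4 and H2AC20. These counts by span and location describe the genes that passed and were not tested.

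Many clustered H2A and H2B genes start head to head from a shared promoter region, and 10 such pairs lay within 500 bp of each other. Both partners passed the filter in 3 pairs, 1 partner in 4 pairs and neither in 3 pairs. In none of the 3 were both partners called in the same direction, but H2BC4 and H2AC20 passed the filter only through shCtrl, the group where they were high, so these directions describe the pairs and support nothing further. H2BC21 was higher while its partner H2AC20, 265 bp away, was at 1.03, 0.139 and 0.328 FPKM in shALKBH5 and 0.996, 0.635 and 0.976 FPKM in shCtrl libraries and was not called (log2 fold change -0.97, SE 0.523, adjusted p = 0.147 by limma). Without shALKBH5 replicate 1 its adjusted p by limma was 0.00689 (log2 fold change -1.58), under the same limit of the filter. H2BC4 was lower while H2AC6, 218 bp away, was higher. H2BC8 and H2AC8 were both not called, with log2 fold changes of 0.21 and 0.40. The filter itself split 4 pairs, so a difference in level within them was fixed by the choice. H2BC12 was at 38.5 and 40.6 FPKM in shALKBH5 and shCtrl cells and H2AC12 at 0.0391 and 0.144 FPKM. H2AW was at 18.5 and 6.97 FPKM and H2BU1 at 0.262 and 0.192 FPKM. H2BC11 was at 1.44 and 1.38 FPKM and H2AC11 at 0.284 and 0.182 FPKM, and H2AC13 was at 1.15 and 0.547 FPKM and H2BC13 at 0.271 and 0.134 FPKM. The gap between partners thus ran from wide in H2BC12 and H2AC12 to narrow in H2AC13 and H2BC13.

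Genes that make, carry and deposit histones were compared from lists. Of 39 genes of DNA replication and S phase, all of which passed the filter, 38 were lower and 1, GINS3, a GINS subunit, was higher, with a median log2 fold change of -1.21, where 61.0% of all tested genes were called and 26.2% were lower. They summed to between 336 and 341 FPKM in shALKBH5 and between 764 and 770 FPKM in shCtrl libraries. CDC45, a part of the replicative helicase, was at 1.80 ± 0.0521 FPKM in shALKBH5 and 9.66 ± 0.303 FPKM in shCtrl cells (SD, n = 3), and was lower (log2 fold change -2.36, SE 0.0595, adjusted p = 3.18e-07 by limma). UHRF1, which reads hemimethylated DNA, and TK1, the cytosolic thymidine kinase, were lower with log2 fold changes of -2.02 (SE 0.0515) and -1.80 (SE 0.0539). Lower values were thus shared with 7 of the 8 tested variants, while 13 of the 24 tested clustered genes were higher, and the part of the S-phase genes in either result was not tested.

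Of the 22 listed genes of histone transcription and 3-prime end processing found in the table, 20 passed the filter, and 8 were higher and 5 lower (median log2 fold change -0.02). The 13 called were 65.0% of the list, near the 61.0% of all tested genes. SLBP, which binds the stem-loop of histone mRNA, was at 16.4 ± 0.297 FPKM in shALKBH5 and 24.4 ± 1.22 FPKM in shCtrl cells (SD, n = 3), and was lower (log2 fold change -0.57, SE 0.0489, adjusted p = 4.92e-05 by limma). CCNE1, the cyclin E that activates the histone locus through NPAT, was lower (log2 fold change -1.05, SE 0.0517), as were LSM11, a subunit of the U7 particle (-0.80, SE 0.108), and the polyadenylation factor FIP1L1 (-0.64, SE 0.0920). NPAT, the coactivator of clustered histone genes, was at 0.598 ± 0.0754 FPKM in shALKBH5 and 0.470 ± 0.154 FPKM in shCtrl cells (SD, n = 3) and was not called (adjusted p = 0.269 by limma). LSM10, the partner of LSM11, was higher (0.63, SE 0.0639). Of 14 tested genes of histone mRNA turnover, 3 were higher and 4 lower, so that 50.0% were called against 61.0% of all tested genes. The called genes with the largest changes were the exonuclease DIS3 (log2 fold change 0.83, SE 0.155), the uridylyl transferase TUT7 (0.63, SE 0.132) and ERI1, a nuclease that trims the histone stem-loop (-0.48, SE 0.147).

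Among 31 tested histone chaperones and assembly factors, 14 were lower and 6 higher, with a median log2 fold change of -0.13. The 20 called were 64.5% of the list, near the 61.0% of all tested genes, of which 26.2% were lower. HJURP, the chaperone of the centromeric H3 variant CENP-A, was lower by the most (log2 fold change -2.40, SE 0.109). ASF1B, a chaperone of newly made H3 and H4, was at 13.9 ± 0.790 FPKM in shALKBH5 and 47.5 ± 1.87 FPKM in shCtrl cells (SD, n = 3), and was lower (log2 fold change -1.77, SE 0.0550, adjusted p = 6.37e-07 by limma). TONSL, which binds new H4, was lower (-1.53, SE 0.0904), as were CHAF1A, the large subunit of chromatin assembly factor 1 (-1.42, SE 0.0555), and NASP, a store for H3 and H4 (-0.71, SE 0.0759). HIRA, which deposits H3.3, was not called (log2 fold change 0.05, SE 0.0524), while DAXX was lower (-0.40, SE 0.0446). Of the 6 called higher, SET had the largest change, at 55.9 FPKM in shALKBH5 and 27.4 FPKM in shCtrl cells in the mean (log2 fold change 1.03, SE 0.0728). Histone proteins whose names the rule did not take were lower in 3 of 3. CENPA was at 1.34 ± 0.0476 FPKM in shALKBH5 and 6.11 ± 0.367 FPKM in shCtrl cells (SD, n = 3), a log2 fold change of -2.11 (SE 0.0748, adjusted p = 1.02e-06 by limma). MACROH2A2 and MACROH2A1, which encode the macroH2A proteins, had log2 fold changes of -0.75 (SE 0.0909) and -0.22 (SE 0.0404).

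The m6A data were 1 list of peaks per group, giving each peak an enrichment of IP over input but no value per library, so differences between the groups have no replicate check and were not tested. The shALKBH5 list held 83 peaks in 50 histone genes and the shCtrl list 82 peaks in 51, with 44 genes in both. Of the 32 tested members, 30 (93.8%) had a peak in the shALKBH5 list and 28 (87.5%) in the shCtrl list. Among the 12868 names of all tested genes the shares were 87.1% and 86.5%. H3-5 was the tested replication-independent gene without a peak in either list. A further 20 members with a peak in the shALKBH5 list and 23 in the shCtrl list were under the expression filter, where a fold enrichment rests on little input.

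Of the 83 histone peaks in the shALKBH5 list, 56 (67.5%, 95% Wilson interval 56.8% to 76.6%) were annotated to the 3′ UTR, and of the 82 in the shCtrl list 45 (54.9%, 44.1% to 65.2%) were. Among all peaks the 3′ UTR held 45.5% and 46.2%. The 5′ UTR held 14 (16.9%, 10.3% to 26.3%) and 20 (24.4%, 16.4% to 34.7%) histone peaks. The intervals cover counting error only. Many clustered genes are shorter than a typical peak, and 12 of 66 peaks in the shALKBH5 list and 10 of 65 in the shCtrl list covered at least 80% of a clustered gene, so the annotated region of such a peak says little about its position.

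Where a gene had several peaks in a list, the one with the lowest p-value is given unless stated. Among the variants, H2AX had the highest enrichment. A peak spanning 1571 bases, 97.3% of the gene, had a fold enrichment of 12.2 in the shALKBH5 list and 15.3 in the shCtrl list, and each list held a near-duplicate over the whole gene at 10.1 and 11.5. H1-10 had 1 peak per list, annotated to the 3′ UTR, at 3.27 and 3.19. H2AZ1 had a 3′ UTR peak of 120 bases at 1.78 in shALKBH5. In shCtrl it had a 5′ UTR peak of 150 bases at 1.64 and an intronic peak of 61 bases at 3.40, so its peaks lay in different places in the lists. H3-3A had a 5′ UTR peak at 2.04 and 2.12.

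Among the clustered genes, H1-2 had a peak over the whole gene in both lists, at 3.53 in shALKBH5 and 3.91 in shCtrl. H2AW had the same 627 bases at 3.56 and 3.96, and H2BC5 a peak over its whole annotated span of 13204 bases at 10.8 and 12.6. H2BC21 had its lowest p-values at peaks of 4.99 and 5.05, and a shorter peak near its 3′ end at 5.55 and 6.38. H4C15 and H4C14 had the highest values of the tested members, at 29.4 and 24.5 in shALKBH5 and at 42.1 and 34.5 in shCtrl, and their reads can be shared between the copies. The copies H2AC18 and H2AC19 went apart in opposite ways, at 8.57 and 15.9 in shALKBH5 and at 24.3 and 5.11 in shCtrl, and these values are uncertain for the same reason. The H2AC18 peak in shALKBH5 also had a log10 FDR of only -0.847, which does not reach an FDR of 0.05. Of 27 tested members compared that had a peak in both lists, this peak had the higher fold enrichment in shALKBH5 in 10 and in shCtrl in 17. The same count over all genes was not made. The median fold enrichment of all histone peaks was 5.56 in shALKBH5 and 5.58 in shCtrl, and that of all listed peaks was 5.31 and 5.25. The peaks compared are not always the same stretch of the gene. Peaks of H2AC7 in both lists and of H3-2 in the shCtrl list extended past the gene and may belong to a neighbour.

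**Figure D5:**
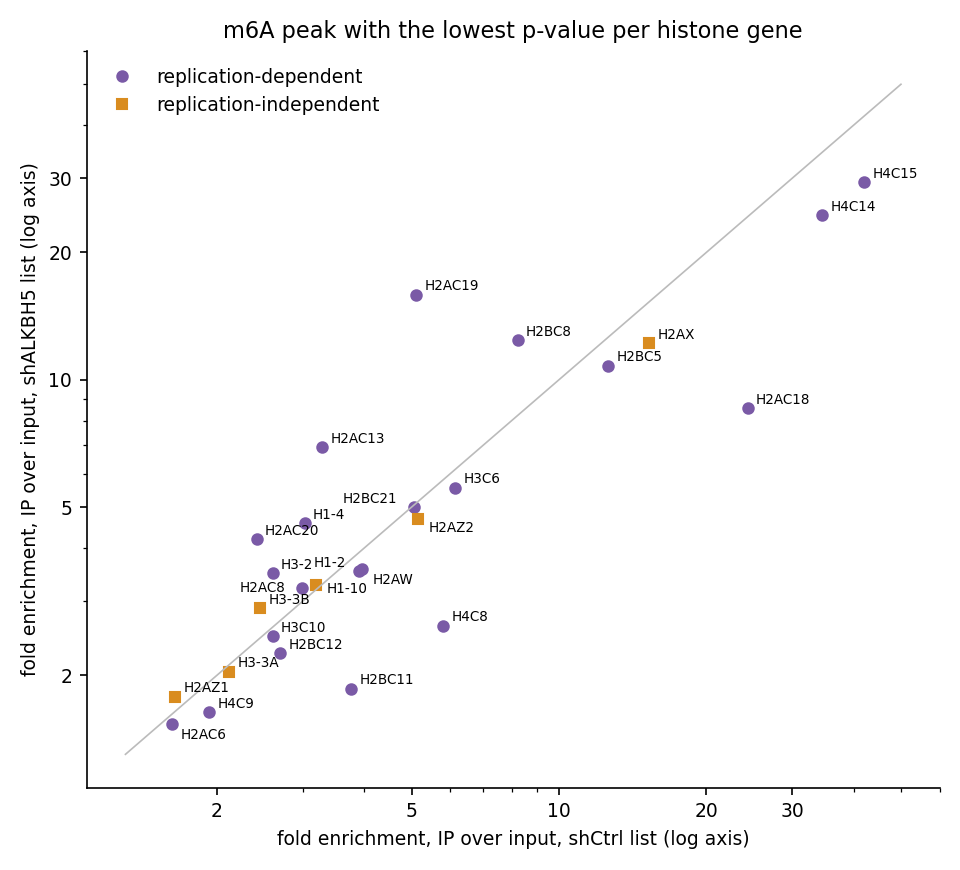
Fold enrichment of IP over input for the m6A peak with the lowest p-value of each of 27 tested histone genes in the shCtrl list (x axis, log scale) and in the shALKBH5 list (y axis, log scale), with the grey line at equal values. Of the points, 10 lie above the line and 17 below, and the same count over all genes was not made.

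Of the 83 histone peaks in shALKBH5, 62 (74.7%) overlapped a histone peak of shCtrl over 1 bp or more on the gene's strand, and 64 of the 82 shCtrl peaks (78.0%) overlapped in the other direction. For all peaks the shares were 78.1% and 81.3%. The table of differential peaks held 11 of its 6513 peaks in histone genes, in 10 genes. The lists of the groups held 83 of 46039 and 82 of 44304 peaks in histone genes, and no excess was tested. They included H2AX and H2AZ2 of the replication-independent class and H2BC4, H2BC12, H2BC18, H3C6, H3C13, H4C8 and H4C9 of the clusters. Its fold changes and p-values are comparisons made before deposit and were not used.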

How the data were processed

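A375 cells with shALKBH5 and with shCtrl had 3 input and 3 IP libraries each, grouped from their labels. The authors deposited expression as FPKM per input library. For each group the authors deposited 1 list of peaks, each peak having a fold enrichment and a score, the log10 of its FDR. The aligner, counter, peak caller, their versions and how replicates were combined are not given in the sources used here. The submitters' processing notes list the mouse build mm10, while the coordinates are human. Of 67 members matched to RefSeq GRCh38.p14, 62 started within 500 bp of the RefSeq start. The library kit marks strand, but whether strand was used in counting is not given. Columns of the authors' own comparisons hold fold changes, log2 fold changes, p-values, q-values and FDR of expression and of peaks, and were not used. No column belonged to another sample.

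The values log2(FPKM + 0.1) were fitted in R 4.3.3 by limma 3.58.1 (lmFit, then eBayes with a trend). Two-sided p-values were adjusted by Benjamini-Hochberg over all genes that averaged 0.5 FPKM or more. The study's edgeR test needs counts, which FPKM are not, and low FPKM values did not fall on steps of whole reads. Depth is therefore unknown, and the 3 libraries per group limit the precision. For 3 against 3 libraries, exact permutation p-values stop at 0.1. The fit was tested on simulated data. Other steps used bedtools 2.31.1, Python 3.11.15, matplotlib 3.10.9, scipy 1.17.1 and pandas 2.3.3. Peak starts were changed to count from 1.

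Members and gene lists were chosen with earlier results of these data known. Full values are given for ALKBH5, for replication-independent members that averaged 0.5 FPKM or more, for the 10 most abundant replication-dependent members and for the 5 largest increases and decreases among called members with groups that do not overlap. Of each pathway list the 3 called genes with the largest change are named, if their higher group averaged 1 FPKM or more, with SLBP, NPAT, NASP, CHAF1A and CENPA. GINS3, LSM10, HIRA, DAXX, SET, H3-2, H3C2, H3C3, H3C4, H3C7, H3C15, H2AC20 and H4C9 were named after their values were seen. Of the histone IDs, 78 matched the table of gene names. Same-numbered libraries did not deviate together (r = 0.02, -0.05 and 0.06), so replicates were not paired. The single values of 1 replication-independent member are not reported here, while counts and sums of the class include it.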

Additional observations from a re-analysis of the deposited data

How the results depend on the processing

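Of the 23 histone genes called, 19 kept their call and direction under every alternative that gave a value, which were median ratio scaling, a pseudocount of 0.01 or 1, a filter at 1 FPKM or none, the replicate block, no trend and each library left out. H2AC13, H2BC4, H3-3A and H4C9 lost it under at least 1. H2AC13 (log2 fold change 1.04, SE 0.338, adjusted p = 0.0308 by limma) lost it without shALKBH5 replicate 1 or 3, without shCtrl replicate 1 or 3 and with no filter (adjusted p from 0.0519 to 0.0956). H1-4 (log2 fold change -0.90, adjusted p = 0.0563), which passed the filter only through shCtrl, where it was high, gained a call with a pseudocount of 1, median ratio scaling, the replicate block, and without shALKBH5 replicate 3. H2AC20, which also passed only through shCtrl, gained one without shALKBH5 replicate 1 (log2 fold change -1.58, adjusted p = 0.00689). The number of replication-dependent genes called lower, 2, was 1 with no filter, 1 with a filter at 1 FPKM and 1 without a trend. It was 3 with a pseudocount of 1, with median ratio scaling and with the replicate block, and between 0 and 3 after leaving out 1 library. Median ratio scaling gave 3788 genes higher and 3898 lower in place of 4509 and 3408, and moved the median of all genes to 0.0152. With it the medians were -0.69 for replication-independent genes, -0.10 for transcription and processing, 0.00233 for turnover and -1.28 for S-phase genes, and the class sums were 161.8 FPKM for the replication-dependent genes in shALKBH5, and 289.3 and 480.0 FPKM for the replication-independent genes in shALKBH5 and shCtrl cells. With no filter the medians were -0.050 for all histone genes, 0.023 for replication-dependent, -0.42 for replication-independent, -0.063 for transcription and processing and 0.044 for all genes. With a pseudocount of 1 they were 0.42 for replication-dependent genes, -0.60 for the histone proteins outside the name rule and -0.93 for S-phase genes. With each library left out, the median ran from 0.11 to 0.40 for the histone genes, from -0.039 to 0.024 for transcription and processing, from -1.25 to -1.19 for S-phase genes and from 0.10 to 0.44 for the RNAs without a poly(A) tail. Uncalled values changed sign when a library was left out for H1-2 (-0.10 to 0.057), H4C12 (-0.20 to 0.12), H2BC11 (-0.085 to 0.26) and H2BC8 (-0.056 to 0.45). The cause was not tested.

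With the replicate number as a block, 7271 genes were called in place of 7917, and 23 histone genes as without it, with H3-3A lost (adjusted p = 0.0549) and H1-4 gained (adjusted p = 0.042). Not every library correlated best with its own number. With peaks limited to a fold enrichment from 2 upward and an FDR up to 0.01, 41 histone genes had a peak in shALKBH5 and 37 in shCtrl. Of the tested members 78.1% and 71.9% had one, against 79.5% and 78.9% of all tested genes, so these shares no longer lay above those of all genes. The 3′ UTR then held 69.8% and 64.8% of the histone peaks, a smaller gap than before, against 48.6% and 49.1% of all peaks. The intronic share in shCtrl was 0% in place of 3.66%. With a reciprocal overlap of 50%, 43.4% of the shALKBH5 and 43.9% of the shCtrl histone peaks were shared, against 51.6% and 53.7% of all peaks. With 3 libraries a group and no read counts, small changes of genes near 0.5 FPKM could not be resolved.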

Other observations

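Of the 48 members below the filter, 6 (12.5%) were called when no filter was used, 4 higher and 2 lower in shALKBH5, where 1359 of all 16711 genes below the filter (8.13%) were called. The levels were near the floor of the table. H4C3, which encodes H4, was at 0.0554, 0.161 and 0.111 FPKM in shALKBH5 and at 1.36, 0.291 and 0.532 FPKM in shCtrl libraries, with no overlap. H4C5 had a mean of 0.565 FPKM in shALKBH5 and 0.191 FPKM in shCtrl cells, also without overlap. When all 29696 genes were tested with no filter, H4C3 had a log2 fold change of -1.80 (adjusted p = 0.0498 by limma) and H4C5 of 1.20 (adjusted p = 0.00269 by limma). With no filter, H2BC15 (log2 fold change 0.70, adjusted p = 0.0174 by limma), H4-16 (0.86, adjusted p = 0.0253) and H2BC6 (0.59, adjusted p = 0.0365) were also higher, and the noncoding H1-10-AS1 (-1.05, adjusted p = 0.0286) was lower. These genes were named after their values were seen.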
